A study of Mus musculus with 6 samples.

Results

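The nuclear-encoded subunits of mitochondrial respiratory complexes I to IV were followed in mouse Neuro2a cells after RNA interference against the transcription factors USF1 and USF2. The set was a fixed list of 44 subunit genes, 25 of complex I, 4 of complex II, 6 of complex III and 9 of complex IV. A gene entered when the array annotation gave at least 1 transcript cluster with its symbol and no other, and all 44 listed genes were found among the 16583 genes measured. Neuro2a is a neuroblastoma cell line, here kept in medium with fetal bovine serum. The 3 control samples had received the empty vector. The 3 knockdown samples had received vectors for microRNA-based RNA interference against USF1 and USF2 (label USF1,2-RNAi), built in the pcDNA6.2-GW/EmGFP-miR system. The vectors were introduced with Lipofectamine 2000. Neither the time after transfection nor the share of cells that took up a vector is stated in the sources used here. Total RNA of each sample was hybridised to 1 Affymetrix Mouse Gene 1.0 ST array, which reads a gene with probes spread along its transcript. The titles number the 3 samples of a group as biological replicates. No label says that each had its own culture, so the p-values reflect how far these samples differ, and that may be technical spread.

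The respiratory chain passes electrons from NADH and succinate to oxygen in the inner mitochondrial membrane and pumps protons as it does so, and ATP synthase uses the resulting gradient. Complex I oxidises NADH, complex II oxidises succinate, complex III passes electrons on to cytochrome c, and complex IV reduces oxygen. Except for complex II, each holds core subunits encoded by mitochondrial DNA next to many encoded in the nucleus. Promoters of the nuclear genes are known for sites of NRF1 and of the ETS factor GABP. USF1 and USF2 belong to the helix-loop-helix leucine zipper family and bind the E-box CACGTG as dimers. The comparison asks which genes lie downstream of them, and the title of the series names lysosomal genes, not these.

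Since the knockdown was aimed at E-box binding factors, the promoters of the subunits were read first. A window of 300 bases, from 250 before the start of the gene to 50 after it, was held for 34 of the 44 genes in RefSeq sequence of build GRCm38.p6. CACGTG, which reads the same on both strands, stood in 1 of these 34 promoters (2.94%), that of Ndufv1. It stood in 1385 of 13071 measured genes with such a window (10.6%) and in 7.15% of all 32851 windows. The ETS core CCGGAAG, or CTTCCGG on the other strand, was in 9 of 34 (26.5%), against 15.8% of measured genes and 8.86% of all windows. An exact palindrome of 10 bases for NRF1 was in 2 of 34 (5.88%), those of Cox6a1 and Uqcrc1, against 1.86% and 0.971%. In the subunits' promoters 0 matches of different motifs overlapped. A gene with several windows counted when any of them held a match. The number of windows per gene was not evened out between the subunits and the other genes, so the shares of genes may not be like for like. A match is only a run of letters, and a window without 1 of them says nothing about binding of the factor.

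The promoters printed are those of the subunit with the E-box (Ndufv1) and of the subunit with the smallest p in the comparison (Uqcrfs1). The others are those of Ndufs3, with its 2 clusters averaged, and Sdhb, whose groups of arrays, like those of Uqcrfs1, did not overlap. The groups of Cox7a2 did not overlap either, and its promoter, not printed, holds no match. The printed promoters were chosen after the values of these subunits were seen. Capitals mark the 3 motifs, all else is in lower case, and each runs 5′ to 3′ along the gene's own strand. Ndufv1 is at chr19:4012706-4013005 on the minus strand, with the E-box beginning at position -169 from the first base of the gene. Uqcrfs1 is at chr13:30545267-30545566 on the minus strand and holds no match. Ndufs3 is at chr2:90904672-90904971 on the minus strand and Sdhb at chr4:140961021-140961320 on the plus strand, both with ETS cores close to the start of the gene.
Ndufv1: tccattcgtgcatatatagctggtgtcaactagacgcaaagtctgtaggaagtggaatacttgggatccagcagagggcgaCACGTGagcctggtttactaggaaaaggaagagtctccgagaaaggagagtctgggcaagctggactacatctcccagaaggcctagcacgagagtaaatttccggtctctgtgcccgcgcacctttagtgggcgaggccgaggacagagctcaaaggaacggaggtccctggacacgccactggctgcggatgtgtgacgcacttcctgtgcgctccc
Uqcrfs1: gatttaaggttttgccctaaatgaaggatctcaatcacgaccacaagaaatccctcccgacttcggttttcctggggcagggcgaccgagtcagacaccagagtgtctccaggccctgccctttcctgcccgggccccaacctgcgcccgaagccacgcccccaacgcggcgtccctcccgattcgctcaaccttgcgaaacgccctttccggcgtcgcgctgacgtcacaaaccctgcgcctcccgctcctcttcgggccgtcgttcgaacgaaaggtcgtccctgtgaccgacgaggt
Ndufs3: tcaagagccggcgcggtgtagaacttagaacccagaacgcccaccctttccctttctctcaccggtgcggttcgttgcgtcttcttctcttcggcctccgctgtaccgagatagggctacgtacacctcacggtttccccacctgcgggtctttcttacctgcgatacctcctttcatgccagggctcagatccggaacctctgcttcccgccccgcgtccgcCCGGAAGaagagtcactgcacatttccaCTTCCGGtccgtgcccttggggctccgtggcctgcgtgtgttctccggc
Sdhb: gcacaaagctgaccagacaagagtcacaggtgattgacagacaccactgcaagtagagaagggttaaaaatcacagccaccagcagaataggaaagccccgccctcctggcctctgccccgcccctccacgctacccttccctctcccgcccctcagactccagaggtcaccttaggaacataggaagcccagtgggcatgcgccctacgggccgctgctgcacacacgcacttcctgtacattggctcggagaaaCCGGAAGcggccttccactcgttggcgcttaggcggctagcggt

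The deposited values are log2 signals relative to the gene's own median over the 6 arrays, so they compare arrays within a gene and carry no level. That median is the mean of the 2 middle arrays, so for a gene with 1 cluster these have equal values of opposite sign. Both targets were lower on all 3 knockdown arrays than on all 3 empty vector arrays, Usf1 with a difference of -0.55 ± 0.07 (SE) and Usf2 with -0.38 ± 0.06. An exact two-sided permutation test gave p = 0.10 for each, the smallest that 3 against 3 arrays allow, and the limma adjusted p over all genes was 0.320 and 0.348. The standard deviation over all clusters was between 0.0531 and 0.0780 on 5 arrays and 0.159 on knockdown array 2. There, the clusters that were at 8 to 16 on the log2 scale before centring, here called the brighter class, had a median of -0.03, and those of the dimmer class, at 4 to 8, had 0.07. Of the 44 subunits, 42 lay in the brighter class, so the genes of that class serve as a second background beside all genes. Of the sympathetic neuroblastoma markers measured, 8 of 10 lay in the brighter class. The brighter class held 0 of 6 glial, 0 of 6 fibroblast, 0 of 4 macrophage and 0 of 7 striated muscle markers.

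After knockdown, most of the subunits had changes just below 0, and none passed the test. In limma 0 of the 44 had an adjusted p under 0.05 over all genes (lowest 0.996), where 0.00603% of all genes, a single gene, did. At an unadjusted p under 0.05 there were 2 lower, Uqcrfs1 of complex III and Ndufa6 of complex I, and 0 higher. That is 4.55% of the members, against 2.65% of all genes lower and 1.6% higher, and 3.47% and 1.42% of the brighter class. For 4 members (9.09%) the whole knockdown group lay below the control group, and for 0 above it. Of all genes 5.95% lay below and 4.33% above, and of the brighter class 8.43% and 5.34%. The share of members called or separated was therefore near the background. The signs were less even. The change was below 0 for 35 of 44 members (79.5%), against 50.4% of all genes and 59.4% of the brighter class. The median change was -0.025, against -0.00066 for all genes and -0.012 for the brighter class. The fit without knockdown array 2 left 26 of 44 (59.1%) below 0 with a median of -0.018, where 55.9% of all genes and 48.3% of the brighter class were below 0.

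**Figure D1:**
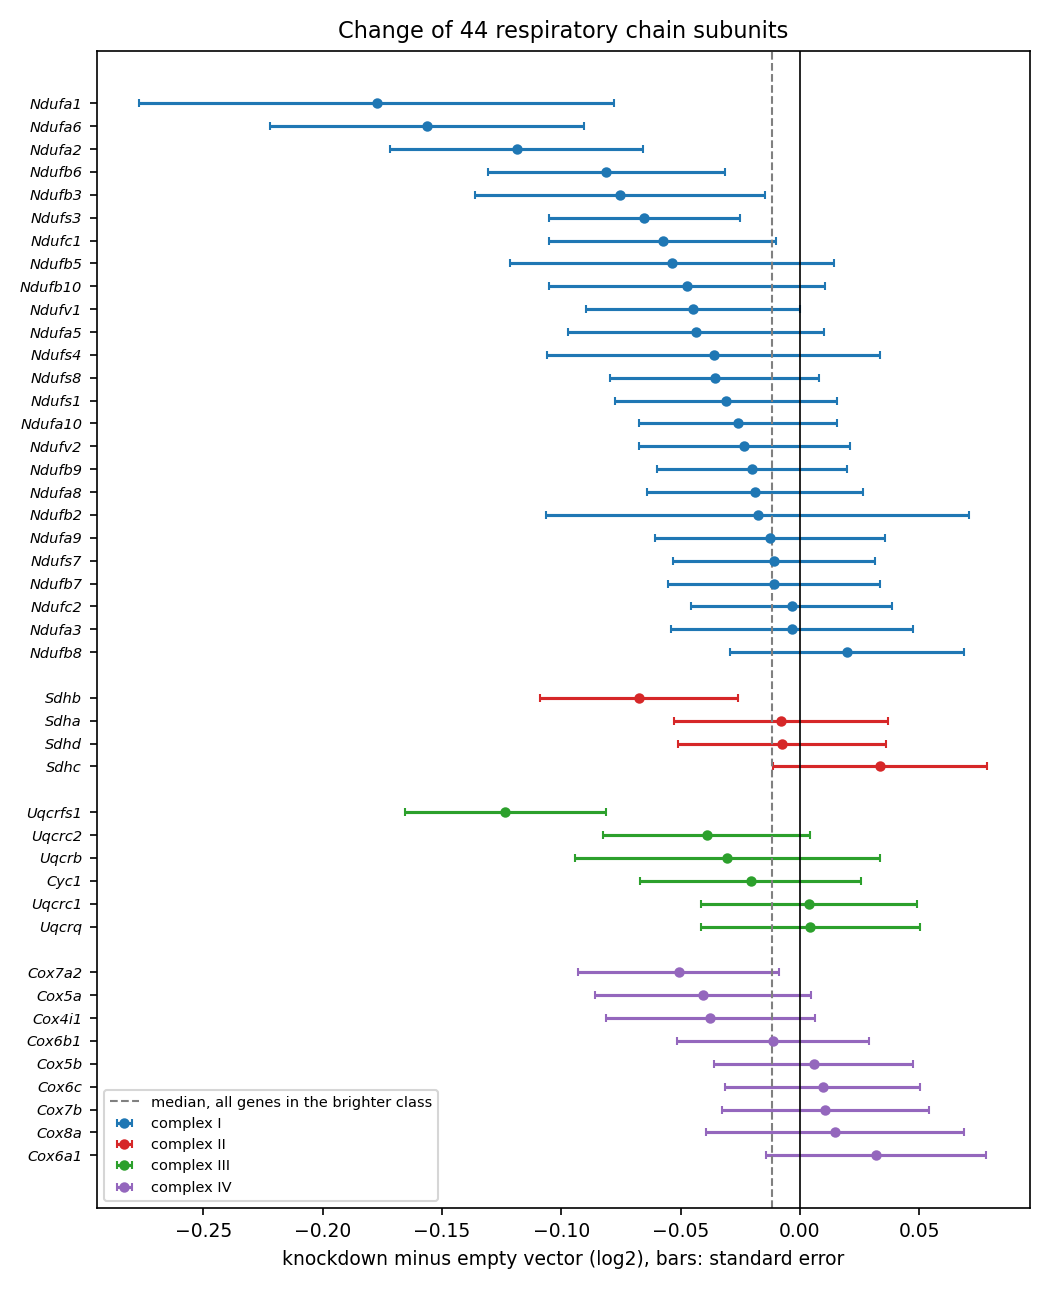
Change of each of the 44 subunits after knockdown relative to empty vector (log2, horizontal axis), with its standard error in limma (bars; 3 arrays per group) and coloured by complex. The changes run from -0.18 to 0.03, 35 of 44 lie below 0, and the dashed line marks the median of all genes in the brighter class, -0.012.

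The arrays were precise enough to bound these changes. The 95% interval of the change lay within 1.25-fold in both directions for 43 of the 44 subunits. Ndufa1 was the exception, with an interval of -0.41 to 0.05. Array signals can understate true folds. These are bulk samples, so fewer responding cells and less RNA per cell cannot be told apart.

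Complex I, the NADH dehydrogenase, had the most uniform signs. Its change was below 0 for 24 of 25 subunits (96%), against 50.4% of all genes and 59.4% of the brighter class, with a median of -0.036. At an unadjusted p under 0.05 there was 1 lower subunit (4%), a share near the 2.65% of all genes and 3.47% of the brighter class. The matrix arm, which takes electrons from NADH through a flavin and iron-sulfur clusters to quinone, had 11 of 11 below 0 (median -0.036), and the membrane arm, which holds the proton channels, 13 of 14 (median -0.023). Without knockdown array 2 these counts were 7 of 11 and 10 of 14. The difference between the arms was not tested.

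Ndufa6, an accessory subunit of the matrix arm with a LYR motif, had relative log2 signals of 0.11, 0.18 and -0.0033 on empty vector arrays 1, 2 and 3 and of 0.0033, -0.17 and -0.02 on knockdown arrays 1, 2 and 3. Knockdown array 1 lay above empty vector array 3, so the groups overlapped. The change was -0.16 ± 0.07 (SE; 0.897-fold), with a limma p of 0.046 unadjusted and 0.996 adjusted, and was -0.10 without knockdown array 2. Ndufa2, an accessory subunit at the NADH end of the arm, was at -0.0030, 0.16 and 0.08 with empty vector and 0.0030, -0.08 and -0.05 with knockdown. Its groups overlapped only by empty vector array 1 and knockdown array 1, which lay next to each other. Its change was -0.12 ± 0.05 (SE; 0.921-fold), and -0.16 and -0.08 without empty vector arrays 1 and 2.

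Ndufs3, a core subunit near the quinone site, was at 0.02, 0.02 and 0.03 with empty vector and -0.0061, -0.05 and -0.06 with knockdown. These are averages of 2 clusters, and on them it was the only complex I subunit of the 25 whose groups did not overlap. The empty vector averages lay close together. The change of Ndufs3 was -0.07 ± 0.04 (SE; 0.956-fold), and its 2 clusters had changes of -0.08 and -0.05. In the second cluster the groups overlapped, with empty vector array 3 at -0.0008 and knockdown array 1 at 0.0008. The empty vector arrays ran from 0.01 to 0.06 in the first cluster and from -0.0008 to 0.03 in the second. Ndufv1, the flavin-binding subunit that accepts electrons from NADH and the subunit with an E-box in the promoter printed above, was at -0.02, 0.07 and 0.07 with empty vector and 0.02, -0.02 and -0.02 with knockdown. Empty vector array 1 was the lowest of all 6 arrays, so the groups overlapped. Its change was -0.04 ± 0.04 (SE). Ndufs3 and Ndufv1 were picked out after their values were seen. The 7 other matrix arm subunits (Ndufa5, Ndufa9, Ndufs1, Ndufs4, Ndufs7, Ndufs8 and Ndufv2) had changes between -0.04 and -0.01, each smaller than its standard error, which ran from 0.04 to 0.07.

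In the membrane arm, Ndufa1, a small subunit encoded on the X chromosome, had the lowest change of all 44. It was at -0.08, 0.12 and 0.20 with empty vector and -0.03, -0.29 and 0.03 with knockdown. The low mean after knockdown came from array 2, while the other two knockdown arrays lay within the range of the empty vector arrays. The change was -0.18 ± 0.10 (SE; 0.884-fold), and -0.08 when knockdown array 2 was left out and -0.12 without empty vector array 3. Ndufa1 and Ndufb3 were the 2 subunits in the dimmer class. Ndufb6, an accessory subunit, was at -0.02, 0.04 and 0.02 with empty vector and 0.02, -0.11 and -0.11 with knockdown. Here knockdown arrays 2 and 3 were both low and array 1 was not. The change was -0.08 ± 0.05 (SE; 0.945-fold), and -0.12 without knockdown array 1. Ndufb8 was the only complex I subunit of the 25 above 0 (0.02 ± 0.05, SE), and its sign turned without knockdown array 3. The 11 others (Ndufa3, Ndufa8, Ndufa10, Ndufb2, Ndufb3, Ndufb5, Ndufb7, Ndufb9, Ndufb10, Ndufc1 and Ndufc2) had changes between -0.08 and -0.0032.

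**Figure D2:**
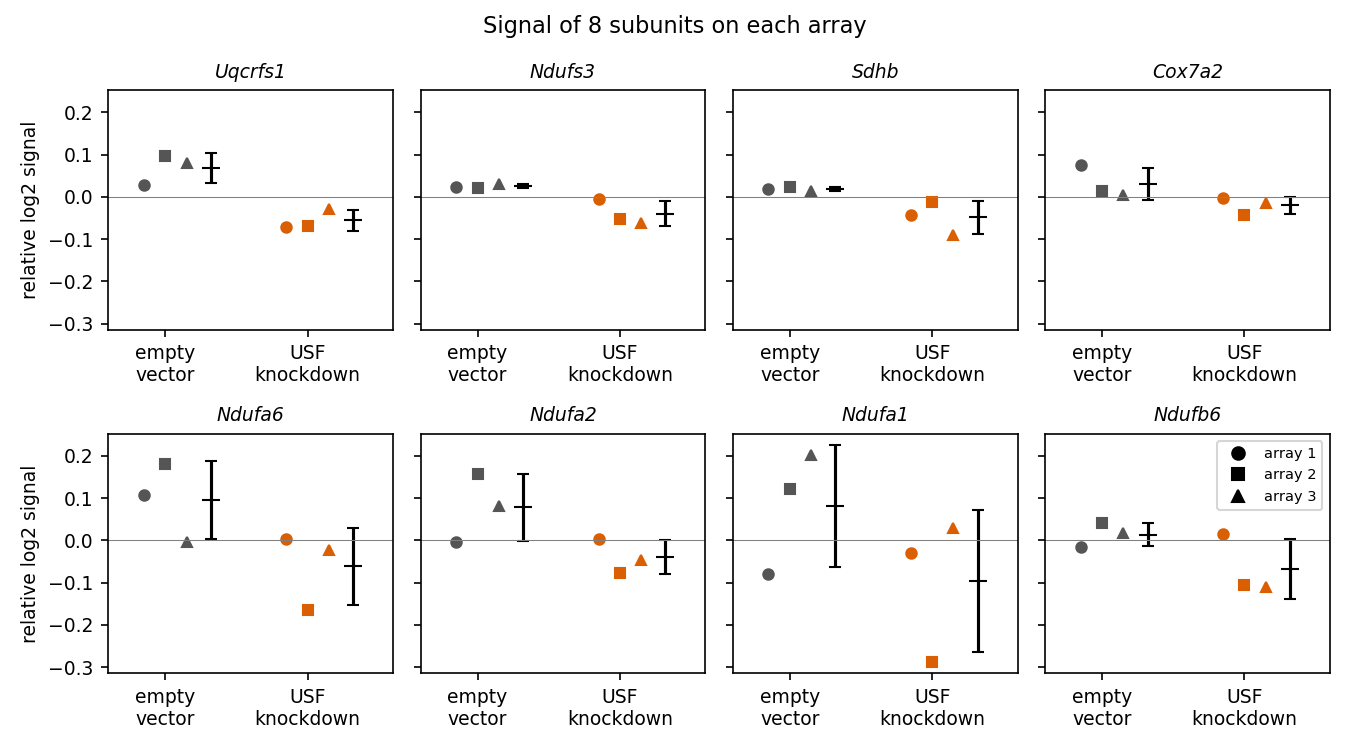
Relative log2 signal (vertical axis) of 8 subunits on each of the 6 arrays, with the group mean and its SD (n = 3 arrays) to the right of the points and the array number given by the symbol. The 4 subunits in the upper row are those whose groups do not overlap (Ndufs3 as the average of 2 clusters). In the lower row Ndufa1 is at -0.29 on knockdown array 2.

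Complex II, succinate dehydrogenase, has 4 subunits, all nuclear, of which 3 (75%) were below 0, and 2 without knockdown array 2, against 59.4% and 48.3% of the brighter class. Sdhb, the iron-sulfur subunit, was at 0.02, 0.02 and 0.01 with empty vector and -0.04, -0.01 and -0.09 with knockdown. All 3 knockdown arrays lay below the narrow range of the empty vector arrays. The change was -0.07 ± 0.04 (SE; 0.954-fold), with a limma p of 0.143 unadjusted and 0.996 adjusted, and -0.09 without knockdown array 2. Sdhc, a membrane anchor, was at -0.09, -0.01 and 0.02 with empty vector and 0.01, 0.02 and -0.02 with knockdown, with groups that overlapped and a change of 0.03 ± 0.04 (SE). That change was 0.0037 without empty vector array 1. Sdha, which carries the flavin, and the other anchor Sdhd both had changes near -0.008. Whether Sdhb differs from the other 3 subunits was not tested.

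Complex III holds the subunit with the smallest p of all 44. Uqcrfs1, the Rieske iron-sulfur protein that passes electrons from ubiquinol towards cytochrome c1, was at 0.03, 0.10 and 0.08 with empty vector and -0.07, -0.07 and -0.03 with knockdown. The groups did not overlap, and no single array stood apart. The change was -0.12 ± 0.04 (SE; 0.918-fold; 95% interval -0.22 to -0.03), with a limma p of 0.0195 unadjusted and 0.996 adjusted over all genes. It ranked 279th of 16583 genes by p. Leaving out each array in turn gave changes between -0.14 and -0.11. In those fits the unadjusted limma p was above 0.05 without empty vector array 2, empty vector array 3 or knockdown array 1, and for Ndufa6 it was above 0.05 without empty vector array 1, empty vector array 2 or knockdown array 2. Uqcrc2, a core protein, was at -0.01, 0.08 and 0.03 with empty vector and 0.01, -0.01 and -0.03 with knockdown, so empty vector array 1 lay among the knockdown arrays. Its change was -0.04 ± 0.04 (SE) and -0.02 without empty vector array 2. Uqcrb, a small subunit, was at 0.10, -0.0082 and -0.05 with empty vector and 0.0082, -0.13 and 0.07 with knockdown. Both groups were wide, and its change of -0.03 ± 0.06 (SE) turned to 0.02 without knockdown array 2. It is read by 3 clusters, all with changes below 0. The others, the core protein Uqcrc1, the small subunit Uqcrq and cytochrome c1 (Cyc1), had changes between -0.02 and 0.0044. Of the 6 subunits 4 (66.7%) were below 0 with a median of -0.026. Without knockdown array 2 there were 2 (33.3%) with a median of 0.0060, against 59.4% and 48.3% of the brighter class.

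Complex IV, cytochrome c oxidase, had changes on both sides of 0, with 4 of 9 subunits (44.4%) below 0, against 59.4% of the brighter class, and a median of 0.0058, which was -0.022 to -0.0032 when each array was left out in turn. Cox7a2 was at 0.07, 0.01 and 0.0037 with empty vector and -0.0037, -0.04 and -0.01 with knockdown. The groups did not overlap, but empty vector array 3 and knockdown array 1 were neighbours. The change was -0.05 ± 0.04 (SE; 0.965-fold) and -0.03 without empty vector array 1. Cox5a, which joins Cox4i1 early in assembly, was at -0.03, 0.04 and 0.04 with empty vector and 0.03, -0.05 and -0.05 with knockdown. Array 1 of each group lay with the arrays of the other group, and the change was -0.04 ± 0.05 (SE), or -0.07 without knockdown array 1. Cox4i1, the largest nuclear subunit, was at -0.0069, 0.08 and 0.0069 with empty vector and -0.0069, 0.01 and -0.04 with knockdown. Its change of -0.04 ± 0.04 (SE) rested on empty vector array 2, without which it was -0.01. Cox6a1 was at -0.08, -0.01 and 0.04 with empty vector and 0.0037, 0.04 and -0.0037 with knockdown, with a change of 0.03 ± 0.05 (SE) that was 0.0012 without empty vector array 1. The 5 others (Cox5b, Cox6b1, Cox6c, Cox7b and Cox8a) had changes between -0.01 and 0.01. Cox5b, Cox6c and Cox7b are each read by 2 clusters, and in each pair the 2 changes had opposite signs, none larger than 0.022 in size. Clusters of this kind can belong to near-identical copies elsewhere in the genome, so the values of the 6 subunits with several clusters are less certain.

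Array by array, the low values of complex I were not spread evenly. Relative to the control mean, the median of complex I was -0.01, -0.08 and -0.05 on knockdown arrays 1, 2 and 3. It was -0.01, 0.02 and -0.0019 on the empty vector arrays themselves, so knockdown array 1 was no lower than empty vector array 1. The share of complex I subunits below that mean was 64%, 80% and 68% on the knockdown arrays and 64% on empty vector array 1. For the brighter class these shares were 50.4%, 66.4% and 46.9%, and 51.4%. Of the 25 subunits, 14 (56%) had their lowest value on knockdown array 2, as did 41.5% of the brighter class. The part of that array's wide spread in the result was not tested. Without it 17 of 25 (68%) were below 0 with a median of -0.02, against 48.3% and a median of 0.0021 in the brighter class. On knockdown array 3 complex I was low while the brighter class was not (median 0.0045).

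**Figure D3:**
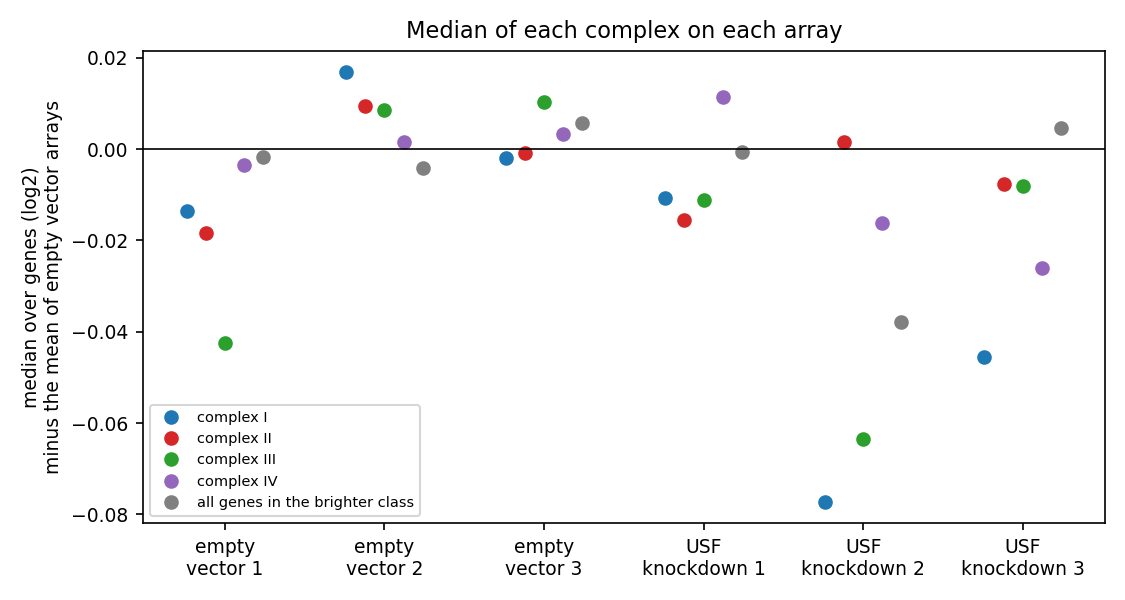
Median over the subunits of each complex, and over all genes of the brighter class, on each array, as the difference from the mean of the 3 control arrays (log2, vertical axis). Complex I is lowest on knockdown array 2 (-0.08) and array 3 (-0.05), and on knockdown array 1 (-0.01) it is at the level of empty vector array 1.

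Other genes of mitochondrial respiration were taken from 8 lists, and none of their genes passed limma over all genes either (adjusted p of at least 0.996). Their shares below 0 stand against 50.4% of all genes and 59.4% of the brighter class over 6 arrays, and against 55.9% and 48.3% without knockdown array 2. Of other subunits of complexes I, III and IV with cytochrome c, 15 measured of 19 listed, 13 (86.7%) were below 0 (median -0.030) and 12 (80%; median -0.020) without knockdown array 2. The leading gene was Ndufs5 of the complex I membrane arm, with a change of -0.14 ± 0.05 (SE). It was followed by Ndufa12 (-0.09 ± 0.04) and the supercomplex factor Cox7a2l (-0.09 ± 0.05, and -0.05 without empty vector array 2). The groups of Ndufs5 and of Ndufa12 did not overlap. For 4 of the 15 genes the whole knockdown group lay below the control group, and for 0 above it. Of all genes 5.95% lay below and 4.33% above, and of the brighter class 8.43% and 5.34%. The mitochondrial DNA itself encodes 13 subunits, of which 2 had a cluster of their own, COX2 (-0.09 ± 0.06) and ND3 (-0.05 ± 0.07), both lowest on knockdown array 2. Without that array ND3 was at 0.03 and COX2 at -0.05, and without empty vector array 1 COX2 was at -0.04 and ND3 at -0.02.

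Of the ATP synthase genes, 16 of 16 measured, 10 (62.5%) were below 0 (median -0.013), and 8 (50%; median -8e-05) without knockdown array 2. Atp5e, the epsilon subunit, had a change of -0.16 ± 0.06 (SE) with no overlap between groups, and Atp5l and Atp5g1 had changes of -0.07 ± 0.07 and 0.03 ± 0.04. Atp5l was at 0.01 without knockdown array 2, and Atp5g1 at 0.01 without empty vector array 1. Of the assembly factors, 39 measured of 43 listed, 26 (66.7%) were below 0 (median -0.042), and 23 (59%; median -0.025) without knockdown array 2. The 26 of them in the brighter class alone had a median of -0.010. The complex I assembly factors Ndufaf2 (-0.23 ± 0.08, SE) and Ndufaf5 (-0.17 ± 0.06) led, and Coa3 of complex IV was at -0.12 ± 0.06. Without knockdown array 2 Ndufaf5 was at -0.11 and Coa3 at -0.07. Ndufaf2 and Ndufaf5 were the 2 assembly factors (5.13%) that were lower at an unadjusted p under 0.05, with 0 higher. Of all genes 2.65% were lower and 1.6% higher, and of the brighter class, which holds neither gene, 3.47% and 1.42%. The whole knockdown group lay below the control group for 5 of the 39 assembly factors and above it for 1. For the ATP synthase genes these counts were 2 of 16, Atp5e among them, and 0. Of all genes 5.95% lay below and 4.33% above, and of the brighter class 8.43% and 5.34%.

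The mitochondrial ribosome, which translates the subunits encoded in mitochondrial DNA, had 69 of 77 proteins below 0 (89.6%; median -0.05), and 56 (72.7%; median -0.03) without knockdown array 2. At an unadjusted p under 0.05 there were 3 lower (3.9%), Mrps21 (-0.16 ± 0.06, SE), Mrpl44 (-0.12 ± 0.05) and Mrpl36 (-0.16 ± 0.07), and 0 higher. That share was near the 2.65% of all genes and 3.47% of the brighter class that were lower, and Mrpl36 was at -0.09 without knockdown array 2. For 10 of the 77 proteins the whole knockdown group lay below the control group, and for 0 above it. Below it lay 5.95% of all genes and 8.43% of the brighter class. Of the tricarboxylic acid cycle, which feeds the chain, 9 of 12 measured genes (75%) were below 0 (median -0.04), and 7 (58.3%; median -0.0095) without knockdown array 2. Dld (-0.13 ± 0.06), Suclg1 (-0.08 ± 0.05) and Fh1 (-0.06 ± 0.05) led. Dld and Suclg1 were at -0.09 and -0.03 without knockdown array 2, and Fh1 at -0.02 without knockdown array 3. Regulators of mitochondrial genes, 15 measured of 16 listed, had 11 (73.3%) below 0 (median -0.013) and 5 (33.3%; median 0.03) without knockdown array 2. Among them the factor Nrf1 was at -0.05 ± 0.04 (SE), the coactivator Ppargc1b at 0.06 ± 0.05 and the mitochondrial DNA binding protein Ssbp1 at -0.13 ± 0.07, or -0.07 without knockdown array 2. Nrf1 was at -0.03 without empty vector array 3. In the tricarboxylic acid cycle and among the regulators, 0 genes had a whole knockdown group below or above the control group. The tissue isoforms of complex IV, used in muscle, testis or lung, had 0 of 7 genes in the brighter class. Of these Cox6a2, the muscle form, had a change of 0.22 ± 0.07 (SE). Its whole knockdown group lay above the control group, as did that of 4.33% of all genes. Cox7b2 and Cox6b2 were at -0.13 ± 0.09 and 0.10 ± 0.11. Without knockdown array 2 Cox6a2 was at 0.16, Cox7b2 was at -0.03 and Cox6b2 turned to -0.03. The median of the 7 isoforms then went from 0.03 to -0.03. Markers of striated muscle, 7 of 7 measured, had a median change of 0.02, those of glia 0.08 (6 measured), of fibroblasts 0.05 (6), of macrophages 0.06 (4) and of sympathetic neuroblastoma -0.02 (10). Of the neuroblastoma markers 5 were below 0 and 5 above. Dbh, with the smallest p among them, had a change of -0.25 ± 0.05 (SE), and -0.21 without knockdown array 2. Its groups did not overlap, and its limma p was 0.0014 unadjusted and 0.759 adjusted. On knockdown array 2 the marker medians, in the same order, were 0.08, 0.17, 0.23, 0.09 and -0.0045 against the empty vector mean. On that measure all genes outside the brighter class were at 0.09 and the brighter class at -0.04. Olfactory receptor genes, 229 measured with 7 in the brighter class, were at 0.16. Without knockdown array 2 the medians of striated muscle (-0.0092), fibroblast (-0.02) and neuroblastoma markers (0.02) turned sign. Those of glia and macrophages were then 0.04 and 0.02. Genes outside the brighter class had a median change of 0.01 over 6 arrays and -0.02 without knockdown array 2. For olfactory receptors these values were 0.03 and -0.02. Whether the markers differ from these backgrounds was not tested.

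**Figure D4:**
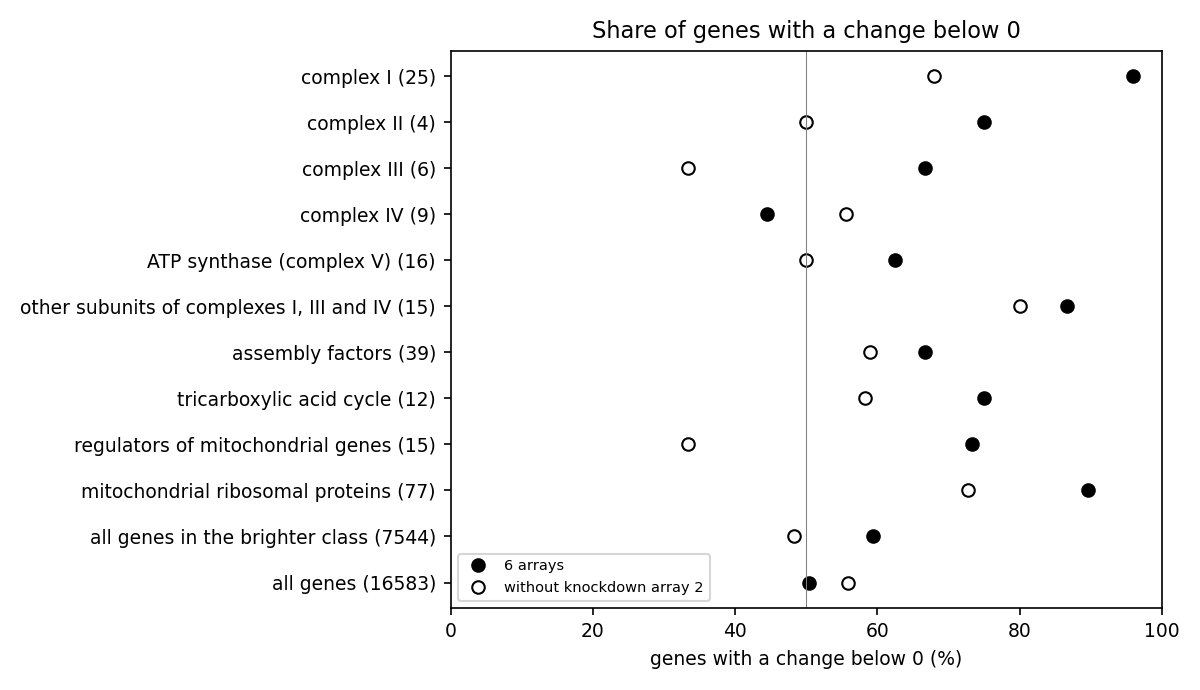
Share of genes (percent, horizontal axis) with a change below 0 in each complex and related list, with the number of genes measured in parentheses, over 6 arrays (filled) and without knockdown array 2 (open). Complex I stands at 96% and 68%, mitochondrial ribosomal proteins at 89.6% and 72.7%, and all genes of the brighter class at 59.4% and 48.3%.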

How the data were processed

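The authors deposited 1 table of log2 signals, 22891 transcript clusters by 6 arrays, in which every cluster has a median of 0. Per the labels, RNA was labelled with an Ambion kit for cDNA and an Affymetrix kit for terminal labelling. Background correction, normalization between arrays and any filter are not stated there, and the log2 scale was read from the rounding of the numbers. That rounding step (tolerance 0.05 of a step) also gave the brightness class before centring: 9947 clusters at 8 to 16, 12903 at 4 to 8 and 41 unknown. A chance fit can misplace a few.

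Only clusters with 1 symbol in the platform annotation were used (18087, giving 16583 genes), and clusters of 1 gene were averaged. Changes are knockdown minus empty vector, fitted with limma 3.58.1 (lmFit, then eBayes; R 4.3.3; 4 residual and 3.79 prior degrees of freedom), with Benjamini-Hochberg adjustment over all genes. The fit was tested on simulated data. Lists were described by counts and medians and were not tested. Promoters came from RefSeq sequence. The members and lists were chosen with earlier results of these data known. Members described on each array were those at an unadjusted p under 0.05 and the 4, 2, 3 and 4 with the smallest p in complexes I to IV, and the related lists give up to 3 genes each by p. Ndufs3, Ndufv1 and Ndufb8 were added after their values were seen.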

Additional observations from a re-analysis of the deposited data

How the results depend on the processing

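The 13 alternatives left 0 of the 44 subunits past the threshold, except that with array quality weights Uqcrfs1 passed, as did 1111 of all genes. That fit gave knockdown array 1 a weight of 33, against 0.136 and 0.441 for arrays 2 and 3, so its knockdown mean is in effect that of 1 array, and the estimate of the weights stopped before it converged. Subunits lower at an unadjusted p under 0.05 were 5 with these weights and 1 with the replicate block. They were 0 to 3 when each array was left out, with 0 higher each time. The share of all genes at an unadjusted p under 0.05 was not counted in these fits. These counts of subunits therefore have no background to be read against. The single gene past the threshold over all genes was lost with the replicate block (0 genes), and without any 1 array 0 to 1 genes passed. The deviations of same-numbered arrays correlated at 0.00311, 0.0819 and 0.0364, and those of arrays with different numbers at -0.0942 to 0.0535. Such deviations also hold the noise of each array, so these values do not settle whether the numbers pair the samples. The count of subunits below 0 was 26 to 38 (59.1% to 86.4%) when each array was left out, 27 with array weights and 31 with quantile normalization. That of complex I was 17 to 24 (68% to 96%), 18 and 21. When each array was left out, 48.3% to 63.4% of the brighter class and 47.5% to 55.9% of all genes were below 0. These background shares were not counted with array weights or quantile normalization. The sign held in all alternatives for 18 of 44 subunits and for 10 of 25 in complex I. Median changes that moved by more than the spread between arrays were as follows. Complex III was at -0.041 to 0.0060 when each array was left out. Complex IV was at 0.014 with quantile normalization, -0.0091 with the cluster of lowest spread for each gene and -0.022 to -0.0032 leaving out each array. Tissue isoforms were at -0.033 to 0.10 leaving out each array. Assembly factors were at -0.016 with array weights and -0.010 in the brighter class alone. ATP synthase was at 0.00032 with quantile normalization, 0.0071 with array weights and -0.013 to -8.0e-05 leaving out each array. The tricarboxylic acid cycle was at -0.022, -0.010 and -0.049 to -0.0095 in the same order. Signs turned for Uqcrb (0.012 with array weights, 0.011 without empty vector array 1, and -0.072 to 0.024 over all 6 such fits), Cox5a (0.0017 with array weights) and Ndufb8 (-0.045 with array weights, -0.015 to 0.053 leaving out each array). They also turned for Ssbp1 (0.0046 with array weights) and, without knockdown array 2, for Cox6b2 (-0.033, with 0.22 the highest without 1 array), ND3 (0.027, lowest -0.11) and Atp5l (0.015, lowest -0.13). The cause of these moves was not tested. No alternative could change the background correction, and 3 arrays per group limit the precision.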
